A study of Homo sapiens with 24 samples.

Results

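The knockout line ES8-SLFN11-ko was compared with its parental line ES8 in cells that received no radiation. ES8 is an established human Ewing sarcoma cell line. The knockout line, also named ES8-1F2 in the series, was made from it by cutting the human SLFN11 gene with CRISPR/Cas9. The arrays were chosen by their titles: 6 knockout and 6 parental arrays at a dose of 0 Gy, which makes 12 of the 24 arrays of the series, with the other 12 coming from the same lines after 2 Gy of gamma radiation. Each line has 3 unirradiated arrays from cells harvested at 4 h and 3 from cells harvested at 24 h. Cells of both lines grew in DMEM/F12 medium with glutamine and fetal bovine serum. The knockout line is 1 derivative, so loss of SLFN11 and the history of that derivative cannot be told apart. The labels do not tell whether the replicates came from cultures of their own, and the spread behind the p-values is that among these arrays, which may be technical. The description covers 17687 genes with 1 symbol.

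SLFN11 belongs to the Schlafen family. It is recruited to stressed replication forks through single-stranded DNA coated with RPA, where it blocks further replication, and its presence makes tumour cells sensitive to many DNA damaging drugs. It also restrains protein synthesis under such stress by cleaving transfer RNAs. Ewing sarcoma is a tumour of bone and soft tissue driven in most cases by the EWSR1-FLI1 fusion, an ETS family transcription factor that activates one set of genes, represses another, and is known to activate SLFN11.

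RNA was measured on Affymetrix whole-transcript arrays, and a value is the log2 signal of a probe set, on which a difference of 1 is a 2-fold change. Across genes, 2 arrays of 1 group correlated at 0.990 to 0.993, knockout arrays with parental arrays at 0.977 to 0.983, and arrays of 1 line from both times at 0.989 to 0.993. On the first principal component, with 47.6% of the variance, knockout and parental arrays lay on opposite sides. The background level, the 95th percentile of 612 negative control probe sets, lay between 3.49 and 3.81 on the 12 arrays. Of all genes, 11651 were above background on every array, and 3582 on none.

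SLFN11, on chromosome 17, was lower in the knockout line. Its log2 signal was 6.40, 6.998 and 6.96 on the knockout arrays at 4 h and 7.07, 7.06 and 6.98 at 24 h, against 8.19, 8.18 and 8.38 on the parental arrays at 4 h and 8.46, 8.49 and 8.29 at 24 h. The groups did not overlap, and knockout replicate 1 at 4 h was the lowest array. The means were 6.91 ± 0.25 in knockout cells and 8.33 ± 0.13 in parental cells (SD over 6 arrays, both times, as for all means below), a log2 difference of -1.42 (SE 0.09, limma adjusted p = 1.02e-12). The signal stayed above background on all knockout arrays. Which part of the gene the probe set reads relative to the edited part is not stated in the labels. Whether the remaining signal comes from transcripts of the edited gene was not tested. In bulk RNA, fewer cells with a transcript and less of it per cell cannot be told apart, here or for any gene below.

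No other measured Schlafen gene was called. SLFN5 averaged 4.92 ± 0.27 in knockout cells and 4.89 ± 0.24 in parental cells. SLFN12 averaged 3.27 ± 0.27 and was above background on 0 knockout arrays, against 3.50 ± 0.14 and 2 arrays in parental cells (difference -0.23, adjusted p = 0.235). SLFN12L, SLFN13 and SLFN14 were not above background on any of the 12 arrays, so a difference between the lines could not be read. Of 28 measured partners of SLFN11 and other replication fork stress genes, 2 were called higher and 1 lower, beside 11.1% and 9.8% of all genes. The higher ones were the fork remodeller HLTF (0.34, SE 0.08) and the helicase RECQL (0.34, SE 0.09), and the lower one was TIMELESS (-0.34, SE 0.09), a fork protection factor that lies among genes with a local median of -0.23.

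Across the transcriptome the lines differed in 3701 of 17687 genes, which is 20.9% (limma, Benjamini-Hochberg adjusted p below 0.05 over all genes, harvest time as a covariate). Knockout cells were higher in 1968 genes (11.1%) and lower in 1733 (9.8%). Below background in both lines were 50 of the higher and 52 of the lower genes, whose differences could not be read with confidence. In all, 3582 genes were in that state, so the shares over all genes include many dim genes that were seldom called. Fitted alone, the 13446 genes above background on at least 3 of the 12 arrays gave 1997 higher and 1737 lower, a larger share. Most differences were small: the median log2 size was 0.44 among the higher and -0.42 among the lower genes. At least 2-fold were 194 of the higher genes (1.1%) and 182 of the lower genes (1.03%), and at least 4-fold 21 and 36. For 989 higher and 837 lower called genes the 6 knockout values did not overlap the 6 parental ones, and without regard to calls this held for 10.5% of all genes. The median 95% interval of a difference spanned 0.22 log2 units on either side, and the median difference of all genes was -0.01.

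**Figure D1:**
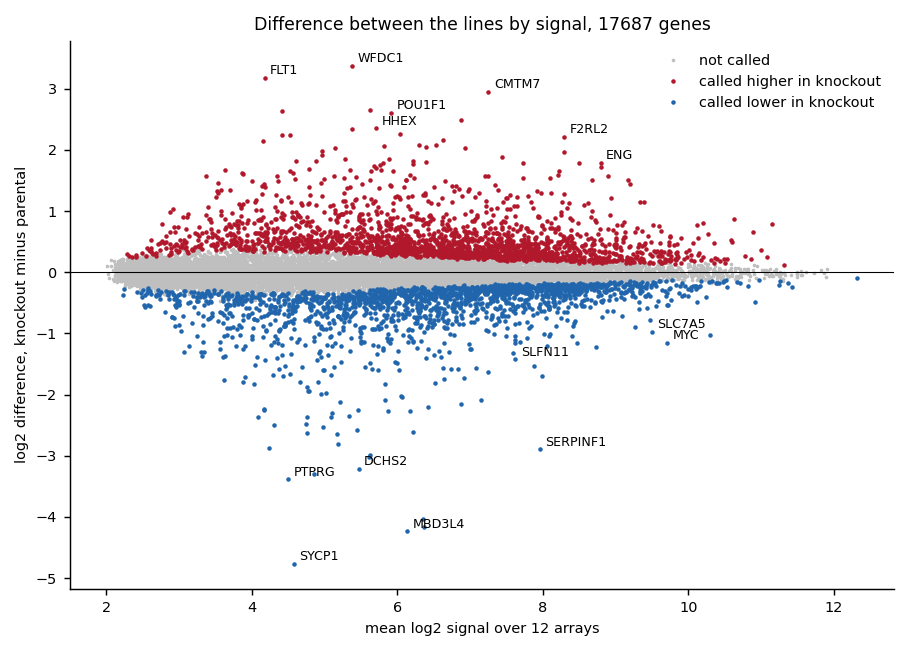
Log2 difference (knockout minus parental, vertical axis) against the mean log2 signal over the 12 unirradiated arrays (horizontal axis), 1 point for each of 17687 genes, with called genes in colour. The 1968 genes higher in knockout cells and the 1733 lower ones are sparse among the dimmest genes. Of the 3582 genes above background on no array, 50 were called higher and 52 lower. WFDC1 and SYCP1 lie at the extremes of the difference.

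The genes with the largest rises in knockout cells encode a secreted protease inhibitor, a VEGF receptor, a membrane protein and transcription factors. WFDC1, a secreted protein of the whey acidic protein family on chromosome 16, had 6.57 to 7.28 (median 7.19) on the knockout arrays, against 3.39 to 4.01 (median 3.68) on the parental arrays. The parental arrays lay near background, and the difference was 3.38 (SE 0.12, adjusted p = 1.96e-17). FLT1, the receptor for VEGF and placental growth factor, had 5.20 to 6.21 (median 5.94) on the knockout arrays and 2.25 to 2.93 (median 2.63) on the parental arrays. None of the parental arrays was above background, so FLT1 was at least 4.37-fold higher, as computed for all such genes from the bright line's mean and a floor for the dim line, its background level or its own signal where that was higher (adjusted p = 5.85e-14). CMTM7, a membrane protein that limits EGFR signalling, had 8.59 to 8.82 (median 8.72) on the knockout arrays and 5.49 to 6.06 (median 5.75) on the parental arrays. It was called with a difference of 2.95 (SE 0.09), and the measured genes around it on chromosome 3 had a median difference of 0.41.

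Transcription factors stood among the largest rises. POU1F1, the pituitary factor that drives growth hormone and prolactin genes, averaged 7.22 ± 0.35 in knockout cells and 4.61 ± 0.39 in parental cells, a rise of 2.61 (SE 0.16). HHEX, a homeobox factor of liver, thyroid and blood vessel progenitors, averaged 6.88 ± 0.16 in knockout cells and 4.53 ± 0.28 in parental cells, a rise of 2.36 (SE 0.12), among genes on chromosome 10 with a local median of 0.44. TFEC, a relative of MITF, was at least 2.99-fold higher. The groups did not overlap for any of these.

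Other large rises were in signalling and secreted proteins. NTS, the neuropeptide neurotensin, rose by 2.34 (SE 0.15), with means of 6.55 ± 0.16 in knockout cells and 4.20 ± 0.42 in parental cells. F2RL2, a co-receptor for thrombin, was among the brightest of these genes, with 9.40 ± 0.22 in knockout cells and 7.19 ± 0.25 in parental cells (difference 2.21, SE 0.10). ICAM2, an adhesion molecule of endothelium and leukocytes, rose by 2.17 (SE 0.13), and the G protein-coupled receptor GPR83 by 2.25 (SE 0.18). SAMSN1, an adaptor protein of lymphocytes, was at least 4.26-fold higher. SRPX2, a secreted ligand of the urokinase receptor, rose by 2.26 (SE 0.16), the trafficking GTPase RAB31 by 2.25 (SE 0.16), and FAM162B and TMEM200A by 2.65 (SE 0.15) and 2.50 (SE 0.10). Of the 6 parental arrays, 4 were above background for WFDC1, 2 for RAB31 and 1 for GPR83.

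The largest falls held a gene of meiosis and a cluster of germline and early embryo genes. SYCP1, the protein that zips homologous chromosomes together in the synaptonemal complex, had 2.05 to 2.35 (median 2.21) on the knockout arrays, all below background, against 6.16 to 7.54 (median 6.91) on the parental arrays. It was at least 9.68-fold lower in knockout cells (adjusted p = 1.4e-17). It was the 1 called gene among 22 measured meiotic chromosome genes, of which 5 were above background on at least 3 arrays.

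MBD3L3, MBD3L4 and MBD3L5 encode relatives of the methyl-CpG binding protein MBD3 and lie in a cluster on chromosome 19. MBD3L4 had 3.63 to 4.22 (median 4.08) on the knockout arrays, against 7.94 to 8.56 (median 8.31) on the parental arrays, a difference of -4.24 (SE 0.10, adjusted p = 1.23e-20). MBD3L3 and MBD3L5 differed by -4.16 and -4.04 (SE 0.12 each). The fourth measured gene of the cluster that was called, MBD3L2, averaged 4.78 ± 0.30 in knockout cells and 6.87 ± 0.31 in parental cells, a difference of -2.09 (SE 0.12). Probe sets may not separate these genes: MBD3L3, MBD3L4 and MBD3L5 are near-identical copies, and MBD3L2 is a less close one. Of 23 measured genes of the MBD3L cluster and of those linked to the embryonic factor DUX4, these 4 were lower and 0 higher, and 9 were above background on at least 3 arrays. The upstream sequences are shown to let a reader see how alike the copies are there. They do not tell whether probe sets separate the transcripts.
MBD3L3: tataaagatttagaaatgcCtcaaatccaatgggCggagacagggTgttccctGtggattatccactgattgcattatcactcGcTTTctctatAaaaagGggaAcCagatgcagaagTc
MBD3L2: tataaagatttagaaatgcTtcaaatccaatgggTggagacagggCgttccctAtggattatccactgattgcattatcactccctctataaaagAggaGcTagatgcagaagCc
Both come from RefSeq (GRCh38.p14), at chr19:7058677-7058796 on the minus strand for MBD3L3 and chr19:7049188-7049302 on the plus strand for MBD3L2. MBD3L4 (chr19:7040216-7040335, minus strand) and MBD3L5 (chr19:7030421-7030540, plus strand) hold the MBD3L3 stretch letter for letter, and the run the 3 share is 213 bases long. Capitals mark bases that differ between MBD3L3 and MBD3L2 or have no partner in the other. Of 120 aligned columns, 107 were identical, which is 89.2%.

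Other large falls were in receptors, enzymes and adhesion proteins. PTPRG, a receptor tyrosine phosphatase, had 2.29 to 3.12 (median 2.87) on the knockout arrays and 6.08 to 6.36 (median 6.15) on the parental arrays. It was above background on no knockout array and on all parental arrays, and was at least 5.68-fold lower. SERPINF1, which encodes the anti-angiogenic protein PEDF, had 6.10 to 6.81 (median 6.59) on the knockout arrays and 9.29 to 9.57 (median 9.38) on the parental arrays, a difference of -2.89 (SE 0.10, adjusted p = 1.07e-17). It was well above background in both lines, and the groups were far apart. DCHS2, a giant protocadherin, differed by -3.21 (SE 0.14), VSNL1, a neuronal calcium sensor, by -3.02 (SE 0.10), and MFAP4, a microfibril protein, by -2.61 (SE 0.13). CYTL1, a secreted cytokine-like protein, was at least 7.07-fold lower, HS3ST4, a heparan sulfate sulfotransferase, at least 5.23-fold, and CHRDL1, a BMP antagonist, at least 3.98-fold. PDE1B, a calmodulin-dependent phosphodiesterase, fell by 2.98 (SE 0.13), among genes with a local median of -0.27. LPAR3, a receptor for lysophosphatidic acid, fell by 2.64 (SE 0.13), among genes on chromosome 1 with a local median of -0.52. HSBP1L1 fell by 2.80 (SE 0.11). Of the 6 knockout arrays, 4 were above background for DCHS2 and HSBP1L1, and 5 for PDE1B, LPAR3 and MBD3L4.

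**Figure D2:**
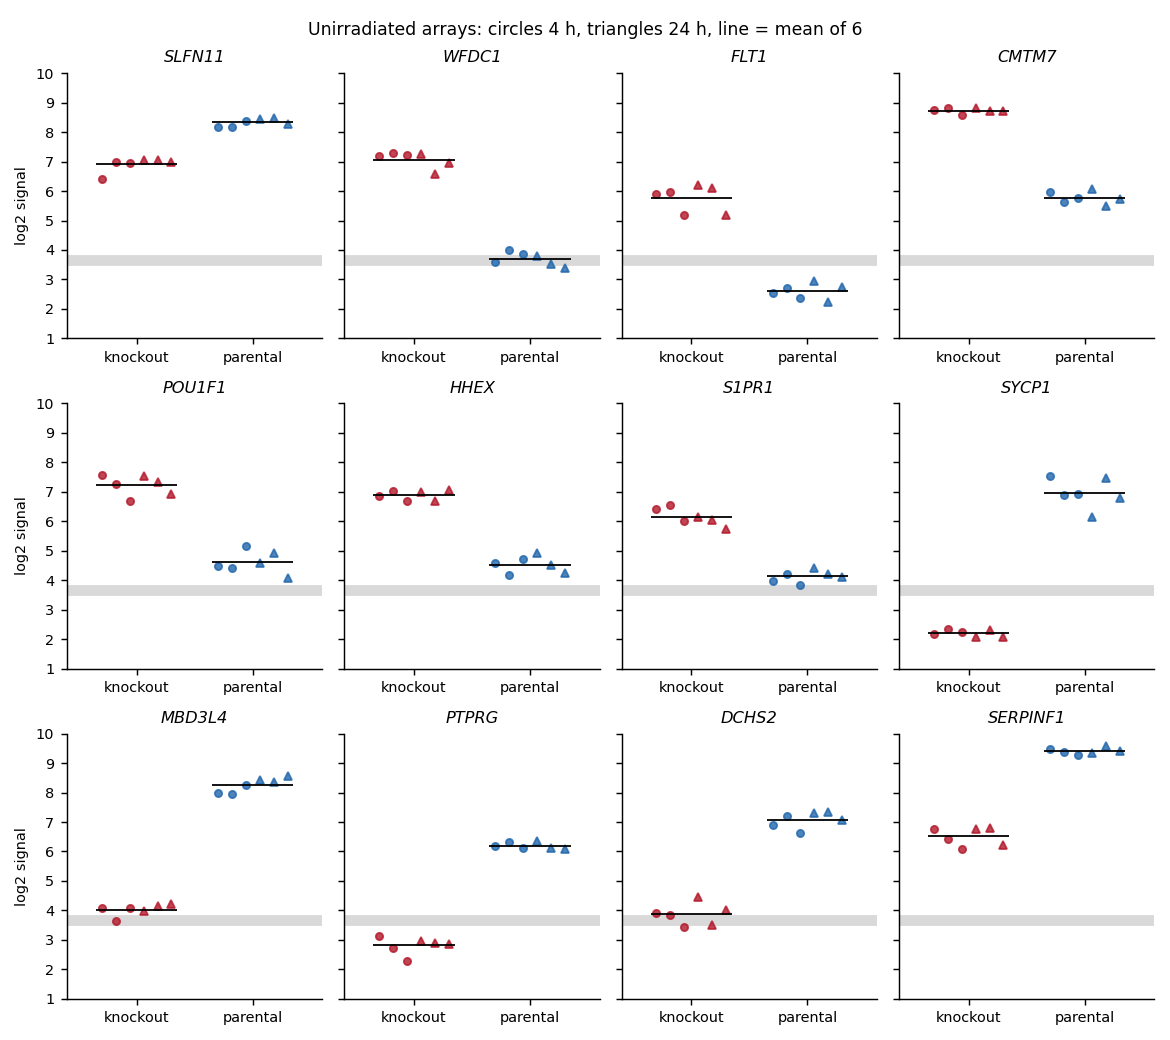
Log2 signal (vertical axis) of 12 genes on the 6 knockout arrays (left in each panel) and the 6 parental arrays (right), circles for 4 h, triangles for 24 h, lines for the mean of 6, with the background range of 3.49 to 3.81 shaded. In every panel the lines are apart on all arrays, with FLT1 below the shaded band on the parental side and SYCP1 and PTPRG below it on the knockout side.

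Receptor tyrosine kinases changed in both directions: 11 of 42 measured were higher and 5 lower, with a median difference of -0.04, beside 11.1% higher, 9.8% lower and a median of -0.01 over all genes. Besides FLT1, ROR2, a receptor for WNT5A and above background on 5 of 6 parental arrays, rose by 1.99 (SE 0.13), with 5.96 ± 0.35 in knockout cells and 3.97 ± 0.19 in parental cells. FGFR2 rose by 1.66 (SE 0.14, local median 0.30) and PDGFRA by 0.85 (SE 0.08). IGF1R, the receptor on which many Ewing sarcoma cells depend, averaged 8.05 ± 0.25 in knockout cells and 8.84 ± 0.21 in parental cells, a fall of 0.80 (SE 0.08), and the ephrin receptor EPHA7 fell by 0.83 (SE 0.15). Of 40 growth factor ligands, 8 were higher and 7 lower. PGF, placental growth factor and a ligand of FLT1, rose by 1.24 (SE 0.14) and IGF1, the ligand of IGF1R, by 0.79 (SE 0.10), while the ERBB4 ligand NRG4 fell by 1.34 (SE 0.16). NRP1, a co-receptor for VEGF and semaphorins, rose by 1.40 (SE 0.09). VEGFA itself was not called, with 8.16 ± 0.22 in knockout cells and 8.31 ± 0.25 in parental cells.

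Early and feedback genes of the ERK pathway, the kinase cascade below these receptors, were called in 11 of 24 cases. Among them 9 were higher and 2 lower (median 0.06 over the list), beside 11.1% higher and 9.8% lower over all genes. DUSP6, a phosphatase that dephosphorylates ERK, had 4.93 to 5.40 (median 5.06) on the knockout arrays and 3.22 to 3.86 (median 3.57) on the parental arrays, a rise of 1.57 (SE 0.12). DUSP5, the nuclear ERK phosphatase, rose by 1.07 (SE 0.13, local median 0.36), and the ETS factor ETV5 was at least 1.52-fold higher. EGR1, an immediate early transcription factor, had 6.73 to 8.31 (median 7.87) on the knockout arrays and 5.32 to 7.47 (median 6.39) on the parental arrays. The groups overlapped, and the difference of 1.35 (SE 0.18, adjusted p = 1.94e-06) comes from a fit that takes harvest time into account. The inhibitor SPRY1 went the other way, with 3.57 ± 0.27 in knockout cells and 5.94 ± 0.27 in parental cells (difference -2.37, SE 0.13), and so did MYC. Above background were 2 of 6 parental arrays for DUSP6 and 3 of 6 knockout arrays for SPRY1. The EGR1 promoter is shown because serum response factor binds CArG boxes in front of such early genes.
EGR1: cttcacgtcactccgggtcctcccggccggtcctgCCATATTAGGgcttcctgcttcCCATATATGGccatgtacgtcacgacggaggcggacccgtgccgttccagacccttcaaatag
This is chr5:138465339-138465458 on the plus strand (RefSeq, GRCh38.p14), with CArG boxes in capitals. A search of both strands of the 250 bases upstream found a CArG box in 1 of 15 listed ERK pathway genes with a promoter sequence, EGR1, and in 1.14% of all 27305 promoters.

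Of 46 TGF-beta and BMP pathway genes, 6 were higher and 12 lower (median -0.04), beside 11.1% higher and 9.8% lower over all genes. The receptor TGFBR2 rose by 1.44 (SE 0.11), among genes on chromosome 3 with a local median of 0.52, and BMP7 by 0.89 (SE 0.12), while BMP6, above background on 2 of 6 knockout arrays, fell by 1.43 (SE 0.14) along with the antagonist CHRDL1. Of 33 Notch and Hedgehog genes, 5 were higher and 10 lower (median -0.09). PTCH1, the Hedgehog receptor and a target of the pathway, averaged 6.40 ± 0.23 in knockout cells and 7.57 ± 0.15 in parental cells (difference -1.16, SE 0.09). The Hedgehog co-receptor CDON differed by -1.13 (SE 0.12) and the transcription factor GLI1, also a target, by -0.95 (SE 0.10, local median -0.26). The Notch ligand JAG1 fell by 0.92 (SE 0.14), close to its local median of -0.85 on chromosome 20. Of 52 WNT pathway genes, 9 were higher and 5 lower.

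Of 13 genes of lysophospholipid signalling, mostly receptors, 2 were higher and 4 lower (median -0.01), beside 11.1% higher and 9.8% lower over all genes. S1PR1, a receptor for sphingosine 1-phosphate, had 5.75 to 6.56 (median 6.11) on the knockout arrays and 3.84 to 4.40 (median 4.16) on the parental arrays, a rise of 2.03 (SE 0.13) against a local median of -0.23. The other higher member was the enzyme SGPL1 (0.27, SE 0.08), which breaks down sphingosine 1-phosphate. S1PR2 fell by 0.71 (SE 0.13), as did the lysophosphatidic acid receptors LPAR1 (-0.51, SE 0.07) and LPAR3. LPAR6 was called lower too, but was above background on 0 of 6 knockout arrays and 2 of 6 parental arrays, and its call and that of SGPL1 were lost with some single arrays left out. Of 18 receptor-type tyrosine phosphatases, 0 were higher and 6 lower (median -0.13), PTPRG by far the most. Of 18 cyclic nucleotide phosphodiesterases, 2 were higher and 3 lower.

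Targets of the EWSR1-FLI1 fusion were called in most cases but did not move one way. Over all genes, 20.9% were called, 11.1% higher and 9.8% lower. Of 37 genes known as activated by the fusion, 14 were higher and 13 lower, with a median of -0.00. Higher were the homeobox gene DLX2 (1.13, SE 0.12), the kinase PRKCB (1.06, SE 0.10) and TNFAIP6 (0.99, SE 0.09), which binds hyaluronan. Lower were PPP1R1A (-2.20, SE 0.10, local median -0.27), an inhibitor of protein phosphatase 1, MYC, GLI1 and the telomerase gene TERT (-1.06, SE 0.21). Of 32 genes known as repressed by it, 11 were higher and 7 lower (median 0.12). ENG, the TGF-beta co-receptor endoglin, averaged 9.69 ± 0.22 in knockout cells and 7.90 ± 0.11 in parental cells (difference 1.79, SE 0.08), whereas LOX, the collagen cross-linking enzyme and above background on 3 of 6 knockout arrays, differed by -2.53 (SE 0.14) and the lectin gene LGALS1 by -1.56 (SE 0.13). Of 10 measured markers of Ewing sarcoma, all above background, 7 were higher and 2 lower (median 0.34). The transcription factors PAX7 (0.83, SE 0.12) and NKX2-2 (0.55, SE 0.13) rose and the surface protein STEAP1 (-0.61, SE 0.08) fell. FLI1, part of which is in the fusion transcript, was 0.27 higher (SE 0.06), and EWSR1 was not called (-0.08, SE 0.05).

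Of 38 collagens, 6 were higher and 4 lower, or 26.3% called beside 20.9% of all genes, with COL6A1 (0.71, SE 0.12) among the higher ones. COL11A1 fell by 1.15 (SE 0.13, local median -0.23) and COL12A1 was at least 1.42-fold lower. Of 42 other matrix proteins, 10 were higher and 4 lower. The fibrillin FBN1 averaged 5.69 ± 0.14 in knockout cells and 4.23 ± 0.14 in parental cells (difference 1.46, SE 0.11). The basement membrane linker NID1, above background on 5 of 6 parental arrays, rose by 1.53 (SE 0.17), against a local median of -0.24, and THBS2 was at least 1.36-fold lower, against a local median of 0.42. Of 37 matrix proteases and inhibitors, 11 were higher and 6 lower. MMP2, the gelatinase, averaged 9.12 ± 0.13 in knockout cells and 8.02 ± 0.17 in parental cells (difference 1.099, SE 0.08), and its membrane-bound inhibitor RECK rose by 1.16 (SE 0.11). TIMP4 rose by 1.50 (SE 0.19, local median 0.47), and the membrane-type protease MMP16 fell by 1.39 (SE 0.11, local median -0.33).

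Cadherins changed in both directions, with 8 of 45 higher and 10 lower, beside 11.1% higher and 9.8% lower over all genes. PCDH10 had 7.03 to 7.81 (median 7.48) on the knockout arrays and 5.10 to 5.75 (median 5.34) on the parental arrays, a rise of 2.05 (SE 0.12). PCDH7, also on chromosome 4, rose by 1.30 (SE 0.07). CDH11, the cadherin of mesenchymal and bone-forming cells, had 4.95 to 5.13 (median 5.05) on the knockout arrays and 6.81 to 7.37 (median 7.11) on the parental arrays, a difference of -2.03 (SE 0.10). For neither PCDH10 nor CDH11 did the groups overlap. The atypical cadherin FAT1 fell by 1.59 (SE 0.09). Of 24 integrins, 2 were higher and 2 lower, or 16.7% called, with ITGB2, the beta chain of leukocyte integrins, at 6.81 ± 0.18 in knockout cells and 4.96 ± 0.20 in parental cells (difference 1.85, SE 0.11). Of 20 contractile genes of the smooth muscle type, 3 were higher and 3 lower. ACTA2, smooth muscle actin, rose by 1.58 (SE 0.09) and the adhesion plaque protein VCL by 0.60 (SE 0.06), both among chromosome 10 genes with local medians of 0.47 and 0.37.

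Of the 50 gene lists, that of amino acid response genes had the largest share of lower members. Of 30 genes of ATF4 and the amino acid response, 14 were lower and 1 higher (median -0.15). Over all genes, 9.8% were lower and 11.1% higher, with a median of -0.01. ATF4 is the transcription factor of the amino acid and integrated stress response. SLC7A5, the light chain of the large neutral amino acid transporter, had 8.61 to 9.36 (median 9.01) on the knockout arrays and 9.87 to 10.10 (median 9.98) on the parental arrays, a difference of -0.97 (SE 0.09, adjusted p = 3.13e-09). SLC3A2, its heavy chain, differed by -0.54 (SE 0.06). ASNS, asparagine synthetase, had 8.02 to 8.78 (median 8.50) on the knockout arrays and 9.001 to 9.41 (median 9.15) on the parental arrays, a difference of -0.72 (SE 0.08). For none of these did the groups overlap. The pseudokinase TRIB3, a feedback inhibitor of ATF4, fell by 1.03 (SE 0.16), with overlapping groups, and lies beside a run of lower genes on chromosome 20. ATF4 itself was called lower (-0.24), a call that was lost when the fit ignored the intensity trend (limma adjusted p = 0.0527), and the neutral amino acid transporter SLC1A4 was the higher member (0.34, SE 0.09).

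The list of amino acid and drug transporters shares no gene with that list. Of 31 transporters, 2 were higher and 14 lower (median -0.20), beside 11.1% higher and 9.8% lower over all genes. ABCC4, an exporter of cyclic nucleotides and drugs, fell by 0.89 (SE 0.09), the glycine transporter SLC6A9 by 0.67 (SE 0.10) and the glutamate transporter SLC1A3 by 0.60 (SE 0.07). The ASNS promoter is shown as an example of the element that ATF4 binds.
ASNS: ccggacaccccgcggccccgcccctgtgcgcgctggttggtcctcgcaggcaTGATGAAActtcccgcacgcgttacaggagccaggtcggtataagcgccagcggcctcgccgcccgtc
This is chr7:97872409-97872528 on the minus strand (RefSeq, GRCh38.p14), with the match to TGATGNAA in capitals. The motif, searched on both strands in the 250 bases upstream, stood in 4 of 25 listed genes with a promoter sequence (ATF3, ASNS, CHAC1 and AARS1) and in 3.19% of all 27305 promoters.

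Genes of DNA replication, repair and division changed little in size. Of 44 replication genes, 9 were higher and 5 lower (median 0.04), beside 11.1% higher and 9.8% lower over all genes, dim ones included. All 44, and all 46 mitosis genes below, were above background on at least 3 arrays. Most calls were below 0.5 in size, such as that of TYMS, thymidylate synthase (0.34, SE 0.05). The exceptions lie in shifted stretches of chromosomes: DSCC1, which helps load the sliding clamp, rose by 1.54 (SE 0.07) with a local median of 1.04, and PCNA, the sliding clamp, fell by 0.59 (SE 0.05) with a local median of -0.82. Of 24 homologous recombination and Fanconi anemia genes, 0 were higher and 5 lower (median -0.11), among them the exonuclease EXO1 (-0.37, SE 0.08) and the recombination repair gene XRCC2 (-0.31, SE 0.07). Of 46 mitosis genes, 15 were higher and 2 lower, with a median of 0.16 and 40 members above 0. The phosphatase CDC25C rose most (0.68, SE 0.09), followed by the spindle motor KIF11 (0.55, SE 0.07, local median 0.44) and CDK1 (0.46, SE 0.08, local median 0.23), while CDC25B fell by 0.44 (SE 0.09, local median -0.75). Of 40 replication-dependent histone genes, which are near-identical copies, 1 was higher and 3 lower.

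Of 33 p53 targets, 10 were higher and 3 lower (median 0.10), beside 11.1% higher and 9.8% lower over all genes. The cell cycle inhibitor CDKN1A had 4.98 to 5.32 (median 5.08) on the knockout arrays and 3.91 to 4.45 (median 4.15) on the parental arrays, a rise of 0.93 (SE 0.12). CCNG1 rose by 0.70 (SE 0.06), and the death receptor FAS by 1.33 (SE 0.11), among genes on chromosome 10 with a local median of 0.46. MDM2, the ubiquitin ligase of p53, went the other way (-0.35, SE 0.10, local median -0.32). Of 18 BCL2 family genes, 2 were higher and 0 lower, and of 19 genes of the unfolded protein response, 4 were higher and 0 lower.

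Genes of antigen presentation by MHC class I had no lower member: 10 of 22 were higher (median 0.22). The shares over all genes were 11.1% higher and 9.8% lower. The list included ligands of the NKG2D receptor of natural killer cells, of which MICB had 6.70 to 7.05 (median 6.77) on the knockout arrays and 5.73 to 6.17 (median 6.05) on the parental arrays (difference 0.81, SE 0.09). ULBP3 and ULBP2, also NKG2D ligands, rose by 1.18 (SE 0.14) and 0.82 (SE 0.13), in a stretch of chromosome 6 with local medians of 0.39 and 0.43. HLA-E, the ligand of the inhibitory receptor NKG2A, rose by 0.83 (SE 0.14). Of 49 interferon-stimulated and sensing genes, 12 were higher and 3 lower (median 0.02), with the RNA sensor RIGI at 0.66 (SE 0.13) and IFI44L at least 2.17-fold lower (local median -0.46). Among 48 cytokines, chemokines and their receptors, 5 were higher and 3 lower. The chemokine CXCL16 rose by 1.69 (SE 0.15), with 5 of 6 parental arrays above background as for OSMR, and OSMR and LIFR, which pair with gp130 as receptors for oncostatin M and leukemia inhibitory factor, rose by 1.23 (SE 0.14) and 1.22 (SE 0.09).

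Developmental transcription factors were called in 41 of 83 cases, 20 higher and 21 lower, beside 11.1% higher and 9.8% lower over all genes. Besides POU1F1 and HHEX, SIX3, a factor of the forebrain and eye, differed by -1.94 (SE 0.13) with 4 of 6 knockout arrays above background, LMO4 by -1.82 (SE 0.13, local median -0.43) and the chromatin organiser SATB1 by -1.59 (SE 0.15), against a local median of 0.49 and with 5 of 6 knockout arrays above background. Of 23 measured HOX genes, 5 were higher and 8 lower, with HOXA2, which patterns the hindbrain and the arches below it, 1.61 higher (SE 0.13) and above background on 4 of 6 parental arrays. Of 33 neuronal and neural crest genes, 3 were higher and 9 lower (median -0.08). NEFH, the heavy neurofilament chain, averaged 7.11 ± 0.18 in knockout cells and 8.64 ± 0.13 in parental cells (difference -1.53, SE 0.08). The vesicle protein SYT1 was higher (0.84, SE 0.08), against a local median of -0.22. Of 41 axon guidance genes, 7 were higher and 4 lower: the netrin receptor DCC rose by 1.77 (SE 0.16), SEMA3C was at least 3.64-fold lower and SEMA6A fell by 1.55 (SE 0.10). Of 26 cancer-testis antigens, 3 were higher and 5 lower, led by PRAME (-1.79, SE 0.13). MAGEA3 and MAGEA6, near-identical copies, fell by 0.89 and 0.93. Of 40 potassium channels, 8 were higher and 4 lower. KCNH2, the hERG channel, rose by 1.54 (SE 0.07).

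Among metabolic genes, the shares called differed between lists, beside 20.9% of all genes. All measured members of the lists below were above background on at least 3 arrays, whereas the 20.9% includes dim genes that were seldom called. Of 43 respiratory chain genes, 2 were higher and 2 lower, a share of 9.3% called, and of 32 ribosomal protein genes, 1 was higher and 0 lower. Of 26 genes of cholesterol and fatty acid synthesis, 5 were higher and 0 lower (19.2% called, median 0.11), led by SQLE (0.77, SE 0.08), whose neighbours had a median of 0.94. Of 34 hypoxia and glycolysis genes, 7 were higher and 5 lower (35.3% called). HK1, the hexokinase of most tissues, averaged 7.40 ± 0.18 in knockout cells and 5.91 ± 0.13 in parental cells (difference 1.49, SE 0.09, local median 0.27). The brightest uncalled gene, the elongation factor EEF1A1, averaged 11.93 ± 0.04 in knockout cells and 11.87 ± 0.03 in parental cells.

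Markers of other cell types were above background in part. Their calls stand beside 11.1% higher and 9.8% lower over all genes. Of 18 epithelial markers, 11 were above background on at least 3 arrays, 0 were higher and 1 lower. Of 18 blood cell markers, 7 were above background, 0 were higher and 2 lower, and PTPRC, the common leukocyte antigen, was above background on none of the 12 arrays. Of 16 endothelial markers, 10 were above background and 2 were higher, ESAM (0.53) and EGFL7 (0.42). PECAM1, KDR and TEK were not above background on any array. Of 14 fibroblast and stromal markers, 10 were above background, 3 were higher and 4 lower.

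**Figure D3:**
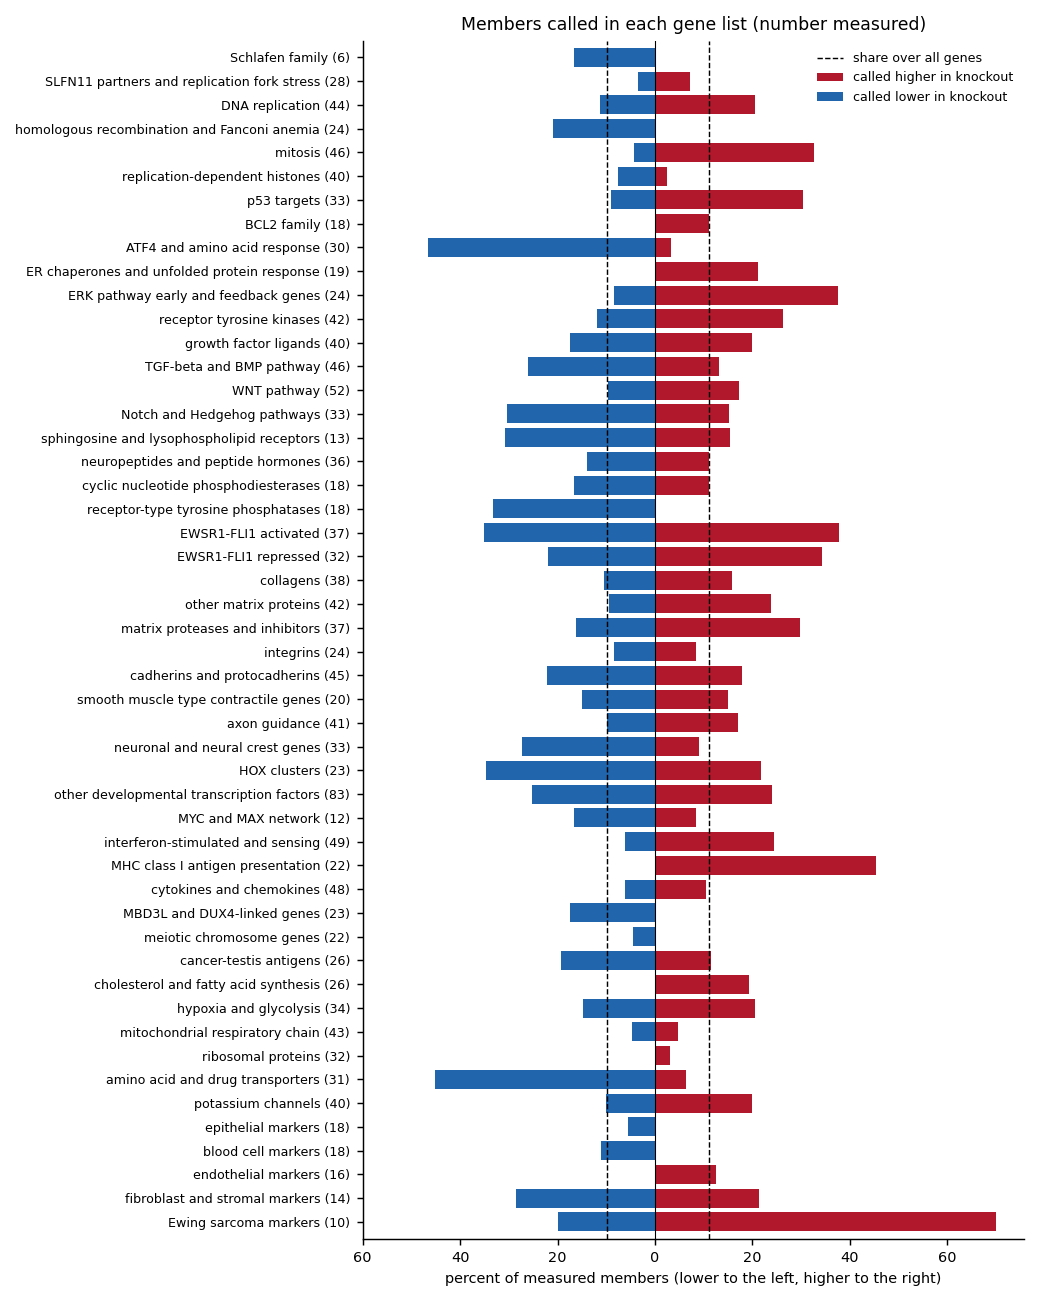
Percent of the measured members of each gene list that were called lower (to the left) and higher (to the right) in knockout cells, with the number measured in brackets. Dashed lines stand at the shares over all genes, dim ones included, 11.1% higher and 9.8% lower. Genes of ATF4 and the amino acid response, and amino acid and drug transporters, reach furthest to the left. Ewing sarcoma markers and MHC class I genes reach furthest to the right.

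Many called genes lay next to each other. The local median, which stands beside single genes above, was taken over the 25 measured genes on each side with a mean signal above 6. Runs of at least 25 genes with a local median past 0.2 in size, a rule chosen after the values were seen, gave 12 stretches, 5 higher and 7 lower in knockout cells. They held 1667 genes, 9.43% of those measured, and 759 of the called genes, 20.5% of them. Because the rule picks stretches by these same differences, a larger share of called genes inside them is built in. Outside the stretches, 2942 genes were called, 18.4% of the genes there, 1549 higher and 1393 lower. Of the 376 genes that differed at least 2-fold, 82 lay inside and 294 outside. DNA copy number was not measured here, and its part in these stretches was not tested.

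The stretches differed in length and size. On chromosome 10, from ASAH2B to SPRN, 203 of 471 genes were higher and 9 lower, with a median of 0.35 over the genes with a mean signal above 6. On chromosome 3, from CNTN6 to OXSR1, 75 of 145 were higher (median 0.47), and on chromosome 6, from SMLR1 to C6orf120, 61 of 170 (median 0.39). On chromosome 20, from TBC1D20 to SLC24A3, 55 of 115 were lower (median -0.72). On chromosome 1, from L1TD1 to CFAP276, 76 of 186 were lower (median -0.33), and on chromosome 12 the stretch from TAMALIN to CCDC59 had 95 of 253 lower (median -0.27). The shortest, LPCAT2 to RSPRY1 on chromosome 16, had 14 of 30 higher and 0 lower (median 0.57).

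The strongest shift was on chromosome 8, from KCNV1 to OC90, where 31 of 58 genes were higher and the median over 30 bright genes was 0.90, with 0.91 at 4 h and 0.99 at 24 h. It holds 4 of the 5 rises with the smallest SE relative to their size among genes with a mean above 8 in knockout cells. MRPL13, a mitochondrial ribosomal protein, had 9.58 to 9.80 (median 9.68) on the knockout arrays and 8.02 to 8.19 (median 8.14) on the parental arrays, a rise of 1.57 (SE 0.05). ZHX1, a zinc finger and homeobox factor, rose by 1.72 (SE 0.06), its readthrough gene ZHX1-C8orf76, whose transcript overlaps it, by 1.51 (SE 0.06), and DERL1, which exports misfolded proteins from the endoplasmic reticulum, by 1.45 (SE 0.05). SNTB1, a syntrophin named after its value was seen, rose by 2.08 (SE 0.11). In the same stretch 4 genes were lower. MYC had 9.02 to 9.34 (median 9.10) on the knockout arrays and 9.95 to 10.47 (median 10.32) on the parental arrays, without overlap, a difference of -1.15 (SE 0.07, adjusted p = 8.45e-13) against a local median of 0.69. The other 3, also named after their values were seen, were LRATD2 (-1.21, SE 0.07), LINC02912 (-2.35, SE 0.13) and CSMD3 (-1.20, SE 0.14).

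**Figure D4:**
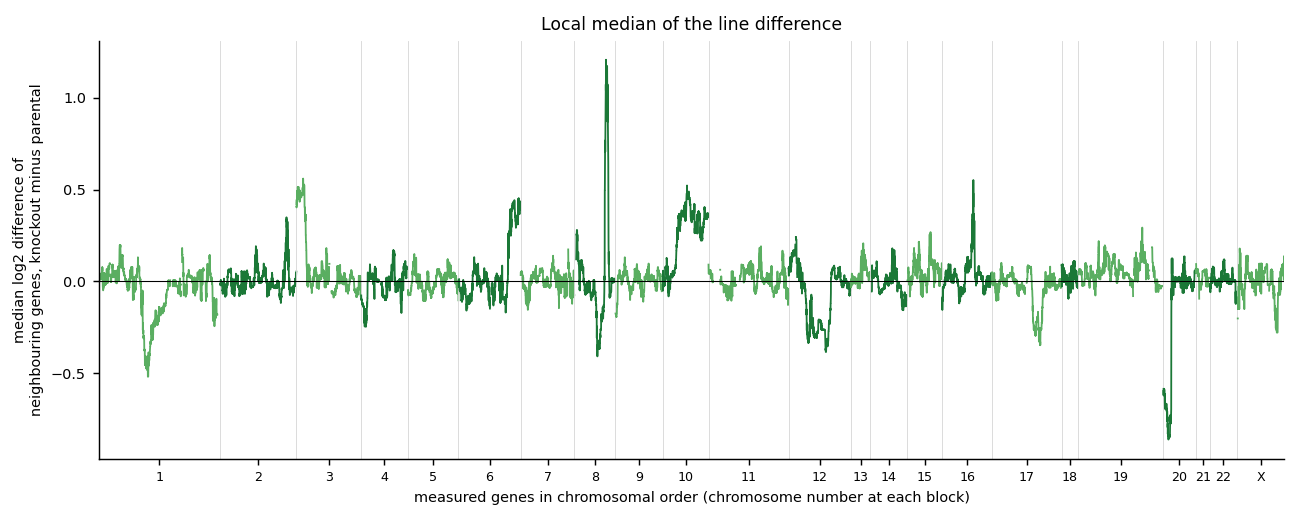
Median log2 difference (knockout minus parental) of the neighbouring genes, vertical axis, for each measured gene in its order along chromosomes 1 to 22 and X, horizontal axis. Most of the line stays near 0, with a plateau on chromosome 10, a spike on chromosome 8 and a drop at the start of chromosome 20.

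The line difference recurred at both harvest times, which share no arrays. The calls at each time do share 1 spread, estimated from all 12 arrays, so they are not separate tests. At 4 h alone, 1150 genes were higher and 1005 lower in knockout cells, together 12.2% of all genes, and at 24 h alone 1191 were higher and 967 lower, also 12.2%. Called at both times were 1493 genes, all in the same direction, which is 69.3% of the calls at 4 h and 69.2% of those at 24 h. Across genes, which are not independent, the differences at the 2 times correlated at 0.83. WFDC1 differed by 3.40 at 4 h and 3.35 at 24 h, SYCP1 by -4.86 and -4.66, and SLFN11 by -1.46 and -1.38.

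No gene was called for a line difference that depended on harvest time (limma, 0 of 17687, 0%), with 710 genes at an unadjusted p below 0.05 and a lowest adjusted p of 0.999. The median unadjusted 95% interval of that term spanned 0.44 on either side, and after adjustment over all genes terms of 1.05 (HSD11B2) and 1.11 (IL32) did not pass either. The genes with the smallest p for this term, none of them called for it, were HSD11B2, VAX2 and IL32. HSD11B2, which inactivates cortisol, differed by -1.05 at 4 h and -0.00 at 24 h. It was called lower over both times (-0.53, SE 0.15). The homeobox gene VAX2 differed by -0.38 and 0.52 and the cytokine IL32 by -0.63 and 0.48, neither called over both times. At a single time, HSD11B2 and IL32 were called at 4 h and VAX2 at 24 h.

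**Figure D5:**
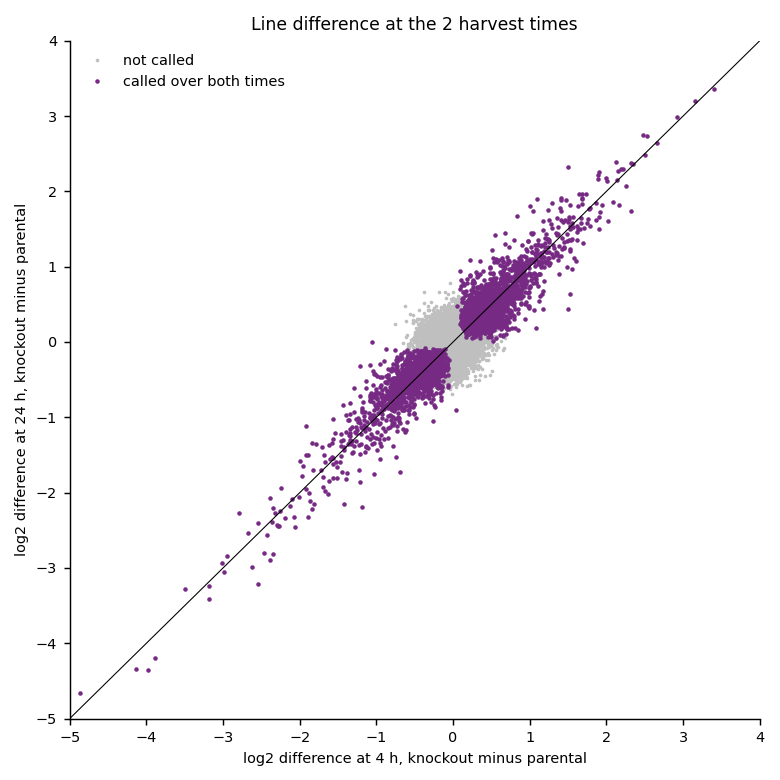
Log2 difference (knockout minus parental) at 24 h, vertical axis, against that at 4 h, horizontal axis, 1 point for each of 17687 genes, with the line of equal differences. Genes called over both times lie along the line of equality at both ends.

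In the irradiated arrays of the same lines, given as a description, most differences had the same sign. Of the 1968 genes higher without radiation, 1942 had a positive difference over the 2 Gy arrays and 1505 were also called higher there. Of the 1733 lower ones, 1700 had a negative difference and 1243 were also called lower. SLFN11 differed by -1.52 there, WFDC1 by 3.25, CMTM7 by 2.94, MBD3L4 by -4.46, SERPINF1 by -2.93 and MYC by -1.09. ASNS differed by -1.12 over the 2 Gy arrays, beside -0.72 without radiation, and SPRY1 by -1.40, beside -2.37. The sign differed for the cyclin CCNE2, at 0.07 over the 2 Gy arrays beside -0.47 without radiation, and for PMAIP1, a p53 target that promotes cell death, at -0.18 beside 0.39. Both lost their unirradiated call with some single arrays left out, with the smallest differences being -0.36 for CCNE2 without knockout replicate 1 at 4 h and 0.27 for PMAIP1 without knockout replicate 3 at 24 h. Whether these differed between doses was not tested here.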

How the data were processed

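RNA of 24 samples was measured on Affymetrix whole-transcript arrays, of which the 12 unirradiated ones enter the main fit. The deposited values are log2 signals that the authors made with RMA in Affymetrix Expression Console 1.1, per the submitters' processing notes; which arrays were normalized together and the array's genome build are not stated there. No aligned reads or counts are involved, so the number of arrays limits the precision.

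The table held 24351 probe sets. Those with 1 gene symbol in the platform annotation numbered 17709 and all matched RefSeq by gene ID. For 20 genes with several probe sets the one with the highest mean was kept. Differences (knockout minus parental) were tested with limma 3.58.1 in R 4.3.3 (lmFit, eBayes with an intensity trend) on deposited values, harvest time as a covariate, with Benjamini-Hochberg adjustment over 17687 genes and a threshold of 0.05. Differences at each time and their dependence on time came from a fit with 1 mean per group. All adjusted p-values of single genes are from limma. Dim genes were not removed. Gene order along chromosomes came from RefSeq GRCh38.p14. Tables and sequences were handled in Python 3.11.15 with pandas 2.3.3 and Biopython 1.88.

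Genes named come from the Schlafen family, the 15 largest rises and 15 largest falls among called genes without overlap, up to 4 higher and 4 lower members of each list, the 5 genes each way with the smallest SE relative to the difference and a mean signal above 8 in the line where they are higher, and the 3 smallest p for line by time. Genes outside this rule are said to be so, apart from ATF4, which names its list, and uncalled or marker genes given for context. The comparison and the 50 gene lists were chosen with earlier results of these data known. Lists are described by counts and medians, without a test.

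Same-numbered knockout and parental replicates deviated together, with r across genes of 0.13, 0.10 and 0.17 at 4 h and 0.07, 0.07 and 0.06 at 24 h. Differently numbered ones gave -0.14 to 0.02 at 4 h and -0.04 to -0.03 at 24 h. The numbers, taken from the titles, were therefore treated as pairs in an alternative fit. The main fit and its SEs and p-values do not use this pairing. On simulated data with the spread of this comparison, 17687 genes and 200 changed, the fit recovered 68% of 100 genes changed by 0.5. It recovered 100% of 100 genes changed by 1, and false calls numbered 13. Between the lines 3701 genes were called, far more than were changed here. The simulation thus does not give the recovery or the false calls of the comparison itself. Alternatives were other sets of arrays, weights, scalings, filters, probe set rules and leaving out each array.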

Additional observations from a re-analysis of the deposited data

Results flagged for a closer look

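For each gene named with a difference, the 6 arrays of each line (both harvest times together) were checked for an array that lies far from the other 5, by Dixon's test at the 95% level. Of 342 such sets, 18 held one, and chance gives about 1 in 20. Among the knockout arrays, replicate 1 at 4 h held 5 of them: SLFN11 was lowest there at 6.399, with the next array at 6.96, as were ABCC4 (5.8414), ULBP3 (5.4334) and SQLE (9.505), and CDH5 was highest (4.4555). Replicate 3 at 4 h had the lowest PDGFRA (8.5163) and the highest SLC3A2 (9.7262), and replicate 2 at 4 h the lowest SEMA3C (2.7142). Replicate 2 at 24 h had the lowest DUSP5 (5.4142) and ENG (9.2566). Among the parental arrays, replicate 1 at 4 h had the lowest ABCC4 (6.9023), ULBP3 (4.2052) and NID1 (3.1466). Replicate 2 at 4 h had the lowest HLA-E (4.0361) and the highest SLC1A4 (7.2823) and VWF (5.1475). Replicate 3 at 24 h had the lowest TFEC (2.7012) and ZHX1 (7.8369). ABCC4 and ULBP3 were thus lowest on replicate 1 at 4 h in both lines. No gene called between the lines among these lost its call when such an array was left out.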

How the results depend on the processing

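Counts of higher and lower genes stayed within 1.5 times their value under all 20 alternatives. Leaving out 1 array at a time gave 1760 to 1949 higher and 1522 to 1779 lower genes, and 2774 of the 3701 called genes, 75.0%, were called each time. With the replicate block, 2235 genes were higher and 1968 lower, together 4203, of which 3690 were also called without it. With all 24 arrays, 1863 were higher and 1628 lower. Centring each array on its median moved the median difference of all genes by 0.02 and the share of higher genes among those called to 58.7%, beside 53.2% as deposited. SLFN11 stayed lower and called throughout. Of 157 other called genes named in the text with a line difference, HSD11B2 not counted, 5 lost their call under an alternative. Without the intensity trend ATF4 had an adjusted p of 0.0527, CCNE2 of 0.0503, PMAIP1 of 0.0531 and LPAR6 of 0.0698, and the last 3 and SGPL1 also lost it with some single arrays left out, SGPL1 at up to 0.0583, CCNE2 at up to 0.0618, PMAIP1 at up to 0.0937 and LPAR6 at up to 0.147. LPAR6 lost it too with all 24 arrays (0.0672), with quantile normalization (0.0751) and with centring (0.0659). SLFN5, uncalled, changed sign with array weights (-0.0075), and leaving out 1 array at a time gave -0.066 to 0.090. SLFN12L, uncalled and below background, ranged between -0.013 and 0.123 in the same way, and VWF, uncalled, between -0.085 and 0.036. Over the lists, 46 of 750 recomputed medians moved by more than 1 SD between replicates. Genes outside the 12 stretches, a choice made after the data were seen, gave 1549 higher and 1393 lower.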

Other observations

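The next 4 genes, all higher in knockout cells, were picked from the table after their values were seen, so no count or test rests on them. The marker lists gave 2 of 16 endothelial markers higher and 0 lower, with 0 at 2-fold and a median difference of 0.0025, and 0 of 18 blood cell markers higher and 2 lower. TAL1, a transcription factor of blood and vessel progenitors, had 5.03 to 6.13 (median 5.50) on the knockout arrays and 3.34 to 4.08 (median 3.67) on the parental arrays, a difference of 1.82 (SE 0.16), with 4 of 6 parental arrays above background. Its relative LYL1 averaged 6.76 ± 0.12 in knockout cells and 5.54 ± 0.22 in parental cells (difference 1.22, SE 0.10). PROCR, the endothelial protein C receptor, averaged 9.28 ± 0.24 in knockout cells and 7.31 ± 0.22 in parental cells, without overlap, a difference of 1.97 (SE 0.10). CALCRL, the receptor for adrenomedullin, differed by 1.75 (SE 0.14). PECAM1, KDR and TEK were below background on all arrays of both lines, and CDH5 and VWF were not called (-0.06, SE 0.13, and -0.03, SE 0.12).

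Of 36 measured neuropeptides, peptide hormones and their receptors, 4 were higher and 5 lower in knockout cells, beside 11.1% higher and 9.8% lower over all genes. CHGA, the granule protein chromogranin A, was above background on 6 knockout arrays and 0 parental arrays and at least 2.37-fold higher, and SCG2, secretogranin II, was 0.83 higher, along with NTS. GAL, galanin, was lower (-1.34), as was the neuropeptide Y receptor NPY5R (-0.88), above background on 3 of 6 knockout arrays. NPY, neuropeptide Y, was above background on 0 knockout arrays and 3 parental arrays and at least 1.095-fold lower.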
